A study of Mus musculus with 6 samples.

Results

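The nuclear genes of the respiratory chain and of ATP synthase were compared between the medial prefrontal cortex (mPFC) of morphine-trained mice and that of saline-trained mice. The genes were taken by symbol: subunits of complex I (Ndufa, Ndufb, Ndufc, Ndufs and Ndufv genes with Ndufab1), complex II (Sdh), complex III (Uqcr genes and Cyc1), cytochrome c (Cycs), complex IV (Cox4 to Cox8) and ATP synthase (Atp5), leaving out pseudogene names. This gave 85 of the 31763 genes in the table, of which 37 belonged to complex I, 4 to complex II, 9 to complex III, 1 to cytochrome c, 17 to complex IV and 17 to ATP synthase. A filter on low counts kept 81 of the 85, among 18970 genes tested. The 4 genes under the filter were Cox6b2, Cox7a1, Cox7b2 and Cox8b. The symbols are those of the table. Atp5s and Cox7a2l, a supercomplex assembly factor, share the naming pattern without being core subunits, and Ndufa4, named for complex I, is now placed in complex IV.

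All animals were male C57BL/6J mice aged 8 to 10 weeks. Mice of the morphine group received morphine at 10 mg/kg i.p. and mice of the saline group received saline at 10 ml/kg i.p. during conditioned place preference (CPP) training, in which a drug is paired with a chamber of the apparatus. After about 1 week of withdrawal in the home cage, the mice had a retrieval test with free access to the chambers. Right after this test, mPFC tissue was taken and rRNA-depleted RNA was sequenced, with 3 samples per group. The study used this design to look for RNA changes that accompany morphine reward memory.

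The respiratory chain passes electrons from NADH (complex I) and succinate (complex II) through ubiquinone to complex III, then through cytochrome c to complex IV, where oxygen is reduced. Complexes I, III and IV pump protons out of the matrix, and ATP synthase uses their return to make ATP. Neurons depend heavily on this pathway, since restoring ion gradients after synaptic activity costs much ATP.

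The libraries held 17984153 to 23529592 counts. Neuronal markers summed to 4437 to 4862 CPM (counts scaled to library size, with TMM factors) in morphine samples and 4130 to 4522 CPM in saline samples, and the 3 excitatory markers to 3981 to 4368 CPM against 3467 to 4166 CPM. Of these 3, Slc17a7 and Neurod6 lay higher in every morphine sample than in any saline sample, as did Stmn2 among the 7 neuronal markers, Rgs5 among the 5 endothelial and mural markers and Ckm among the 4 muscle markers. Cspg4, among the 3 oligodendrocyte precursor markers, and Tbx21, among the 8 olfactory bulb markers, lay lower in every morphine sample than in any saline sample. Over all genes tested, 5.98% were separate upward and 7.32% downward. The 4 striatum markers summed to 61.9 to 64.6 CPM in morphine samples and 46.9 to 56 CPM in saline samples, the only list whose sums did not overlap. Of these 4, only Ppp1r1b was separate, at 45.8 to 49.33 CPM in morphine samples and 30.45 to 41.95 CPM in saline samples. Drd1, Drd2 and Adora2a overlapped between the groups. The part of these differences in the values of the respiratory chain genes was not tested. A list of 8 olfactory bulb markers summed to 149 to 160 CPM in morphine samples and 146 to 584 CPM in saline samples, and the highest value was that of saline sample 1. The low ends of the saline ranges of the neuronal, excitatory and striatum sums were also values of saline sample 1. Camk2a, for example, stood at 2206 CPM there, against 2854 and 2728 CPM in saline samples 2 and 3. Saline sample 1 also had the highest interneuron sum, 869.5 CPM, with Gad1 and Gad2 raised but Sst, Pvalb and Vip not. That library stood apart, so counts are also given without it. Whether the samples came from separate mice or pools is not given, so a p-value here covers only the spread between the samples at hand. In bulk tissue, fewer cells of a type and less RNA per cell cannot be told apart.

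Across the mPFC, respiratory chain genes were among the well-expressed genes, at a median of 18.04 FPKM (the authors' unit, fragments scaled by gene length and library size), and 65 of 85 averaged over 10 FPKM. Median levels were 32.6 FPKM in complex III, 29.3 in complex II, 27.0 in complex IV, 14 in complex I and 13.1 in ATP synthase. Cox8a, a small subunit of complex IV, had the highest level of all, 282 ± 14.8 FPKM in morphine samples and 284 ± 7.42 FPKM in saline samples (SD, n = 3 each). It was followed by the alpha and beta subunits of the ATP synthase head, Atp5a1 at 174 ± 5.87 against 171 ± 8.93 FPKM and Atp5b at 146 ± 3.31 against 145 ± 10.5 FPKM, and by Cox4i1 at 112 ± 5.68 against 110 ± 4.19 FPKM. For each of these 4 genes the group means differed by less than the SD of either group. Sdha, the flavoprotein of complex II, led its complex at 62.3 ± 2.42 FPKM in morphine samples and 59.8 ± 3.58 FPKM in saline samples. Uqcr10, a small subunit, led complex III at 65.2 ± 1.41 against 61.0 ± 3.47 FPKM.

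**Figure D1:**
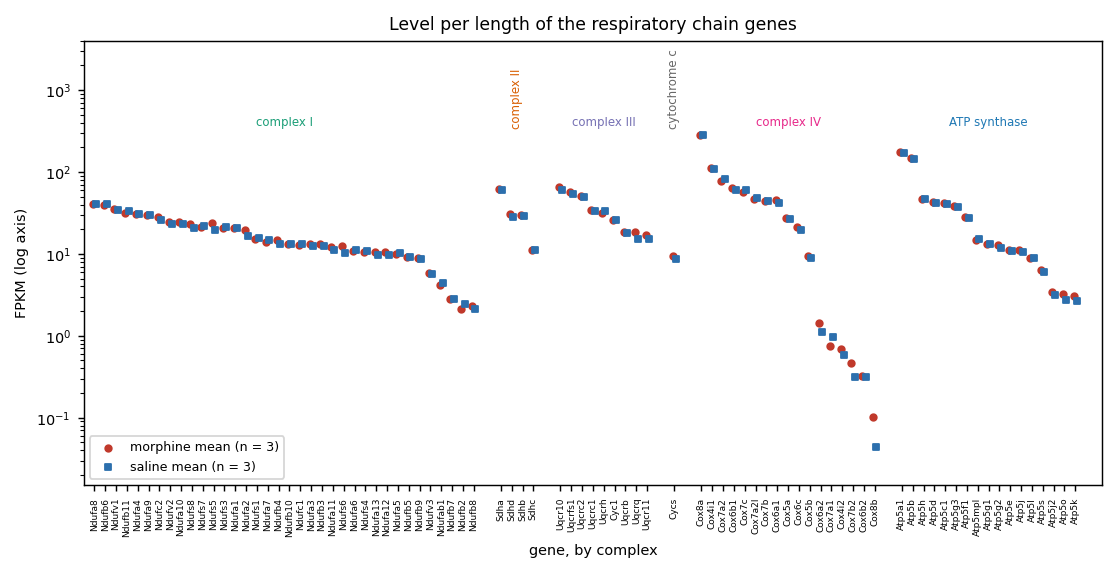
Mean FPKM of 84 of the 85 genes on a log axis, ordered within each complex, for morphine samples (circles, n = 3) and saline samples (squares, n = 3). Cox8a, Atp5a1, Atp5b and Cox4i1 lie over 100 FPKM, and the muscle, lung and testis isoforms of complex IV lie at the bottom.

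The lowest values belonged to isoforms of complex IV known from other tissues, and all of these but Cox8b had counts in every library. Among the other genes the lowest was Ndufb8, a membrane-arm subunit of complex I, at 2.21 FPKM over the 6 libraries. Complex IV has isoform pairs of which the second form is known from heart and skeletal muscle, lung or testis. Cox4i2, the lung form, stood at 0.504% to 0.735% of the FPKM of Cox4i1 in morphine samples and 0.263% to 0.739% in saline samples. Cox6a2, the heart and muscle form, stood at 3.02% to 3.26% of Cox6a1 in morphine samples and 2.08% to 3.01% in saline samples. The muscle form Cox7a1 stood at 0.644% to 1.26% of Cox7a2 in morphine samples and 0.552% to 2.096% in saline samples, and the testis form Cox6b2 at 0.349% to 0.693% of Cox6b1 against 0.388% to 0.719%. Cox7b2 stood at 0.684% to 1.79% of Cox7b against 0.199% to 1.01%. Cox8b had 0, 2 and 0 counts in morphine samples and 0, 1 and 0 counts in saline samples. The percentage ranges of the 2 groups overlapped for Cox4i2, Cox6b2, Cox7a1 and Cox7b2, and the lowest morphine value of Cox6a2 lay just above its highest saline value.

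The c ring of ATP synthase is encoded by 3 genes, Atp5g1, Atp5g2 and Atp5g3, whose mature proteins are identical. Of their summed FPKM, Atp5g3 made up 58.0% to 61.6% in morphine samples and 58.8% to 61.5% in saline samples. Atp5g1 made up 19.8% to 21.02% against 20.01% to 21.6%, and Atp5g2 18.6% to 21.3% against 16.9% to 20.2%. The shares overlapped between the groups for all 3 genes. Of the 100-base stretches of Atp5g2 transcripts, 34.7% also occur in transcripts of Gm10175 or Gm10231, so its counts could be split with them.

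Promoters of these genes were described with windows of 250 bases before and 50 bases after the start, from RefSeq on GRCm38.p6. A window was matched for 70 of the 85 genes, 75 windows in all. NRF1, GABPA and YY1 are transcription factors known for binding at promoters of nuclear genes for mitochondrial proteins. The NRF1 motif, searched on both strands, was in 24% of the member windows and in 4.6% of all 32851 windows. The GABPA/ETS motif, CCGGAAG on both strands, was in 21.3% against 8.86%, and the YY1 motif, also on both strands, in 5.33% against 0.633%. A match describes letters in the window and does not show binding. Many of the genes also lie head to head with a neighbour: 31 of 85, or 36.5%, had an opposite-strand protein-coding gene starting within 1000 bases, against 13% of the 17894 protein-coding genes in the table.

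**Figure D2:**
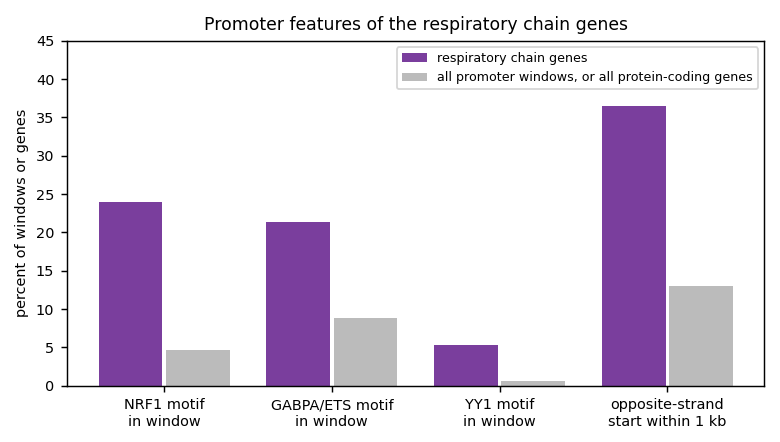
Percent of promoter windows with each motif, and percent of genes with an opposite-strand protein-coding start within 1 kb, in respiratory chain genes (left bar of each pair) and in all windows or all protein-coding genes (right bar). The bars are 24% and 4.6% for NRF1, 21.3% and 8.86% for GABPA/ETS, 5.33% and 0.633% for YY1, and 36.5% and 13% for head-to-head starts.

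Between the groups, no respiratory chain gene passed an adjusted p of 0.05 in edgeR's quasi-likelihood test with Benjamini-Hochberg adjustment. No gene of the table did (0% of 18970), and DESeq2 called 16 genes (0.0843%), none of them in the respiratory chain. At an unadjusted p under 0.05, 3 of the 81 genes were higher in morphine samples, 3.70% against 2.77% of all genes, and 0 were lower, against 4.96% of all genes. Among the 14280 protein-coding genes tested, 2.79% were higher and 3.47% lower. The 3 genes were Uqcrq, Ndufs6 and Ndufs5. The share of genes at this p was thus near that of the table for higher values.

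The differences were small and mostly of one sign. Of the 81 genes, 64 had a log2 fold change above 0 (79.0%, against 47.5% of all genes), with a median of 0.0565 against -0.0093 over all genes. All members are protein-coding, and of the protein-coding genes tested 50.6% lay above 0, with a median of 0.002. The range ran from -0.16 for Ndufb2 to 0.38 for Cox6a2, 54 genes lay within 0.1 of 0, and 9 had a size over 0.2. The median standard error was 0.0842, larger than the median difference. Other scalings kept this side: 86.4% of the genes were above 0 with RLE size factors, against 49.7% of all genes, and 71.6% with library totals alone, against 42.2%.

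By complex, values above 0 were found in 25 of 37 genes of complex I (median 0.0357), 4 of 4 of complex II (0.0661), 8 of 9 of complex III (0.0781), 10 of 13 of complex IV (0.0577) and 16 of 17 of ATP synthase (0.0488). Cycs stood at 0.14. These medians moved by over 1.5 times when single libraries were left out. In complex II the median ran from 0.0374 without saline sample 2 to 0.101 without saline sample 1, in complex III from 0.0455 to 0.12 without the same samples, and Cycs from 0.06 without morphine sample 1 to 0.19 without morphine sample 2. In 10 of 81 genes (12.3%, against 5.98% of all genes) every morphine sample lay above every saline sample, and in 0 genes (against 7.32%) every morphine sample lay below. Among the protein-coding genes tested, these shares were 6.37% above and 6.09% below. The 10 genes were Ndufs6 in complex I, Sdhd in complex II, Uqcr10, Uqcrc2, Uqcrfs1 and Uqcrq in complex III, Cycs, Cox6a2 and Cox6c in complex IV, and Atp5o in ATP synthase. Complex III thus held 4 of them among its 9 genes, and complex I 1 among its 37.

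**Figure D3:**
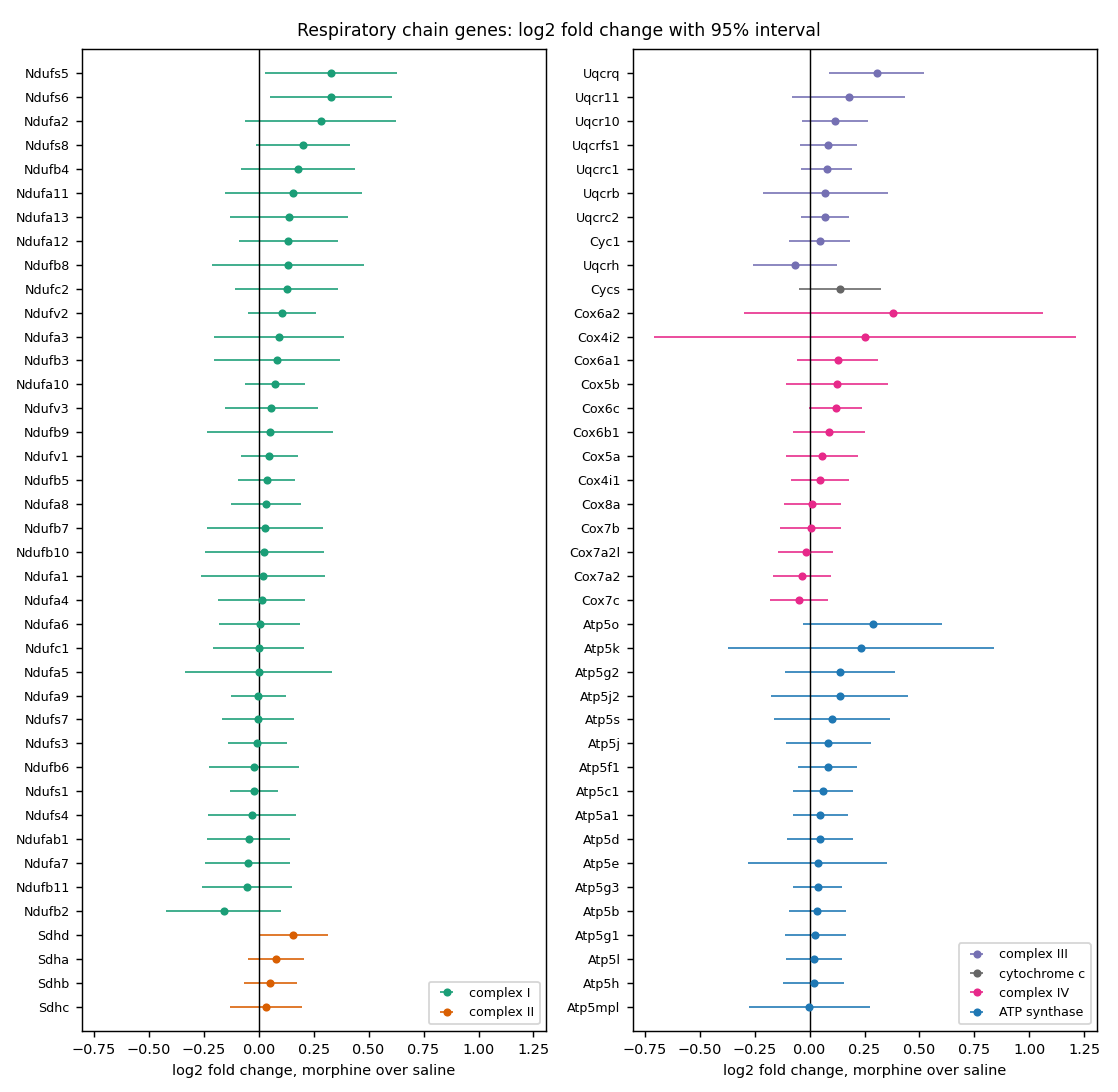
Log2 fold change (morphine over saline) of 80 of the 81 tested genes with 95% intervals from edgeR, by complex. Points lie to the right of 0 for 63 of the genes drawn, and the interval lies wholly above 0 for Uqcrq, Ndufs6 and Ndufs5.

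The level of these genes moved from library to library as a group. The median deviation of the 81 genes from their own means was 0.07, -0.03 and 0.05 (log2) in morphine samples 1, 2 and 3, against 0.04, -0.05 and -0.07 in saline samples 1, 2 and 3. Morphine samples 1 and 3 and saline sample 1 were thus high, saline samples 2 and 3 and morphine sample 2 were low, and the groups overlapped. Morphine sample 1 was the highest library for 35 genes and saline sample 1 for 22, while saline sample 3 was the lowest for 36 and saline sample 2 for 23. The genes took 0.489%, 0.470% and 0.485% of all counts in the morphine samples and 0.500%, 0.457% and 0.457% in the saline samples. By that share saline sample 1 was the highest library, and the other 2 saline samples were the lowest.

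Genes for cytoplasmic ribosomal proteins moved between the libraries in much the same way. Their median deviation was 0.08, -0.09 and 0.08 in morphine samples and 0.09, -0.03 and -0.10 in saline samples. The list was taken by symbol, so it also holds Rps19bp1, named as a binding protein, and paralogs such as Rpl22l1 and Rps4l. Of the 86 genes tested, 58 had a log2 fold change above 0 (median 0.044). In 0 of them did every morphine sample lie above every saline sample, against 5.98% of all genes. The part of this shared movement in the respiratory chain values was not tested.

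**Figure D4:**
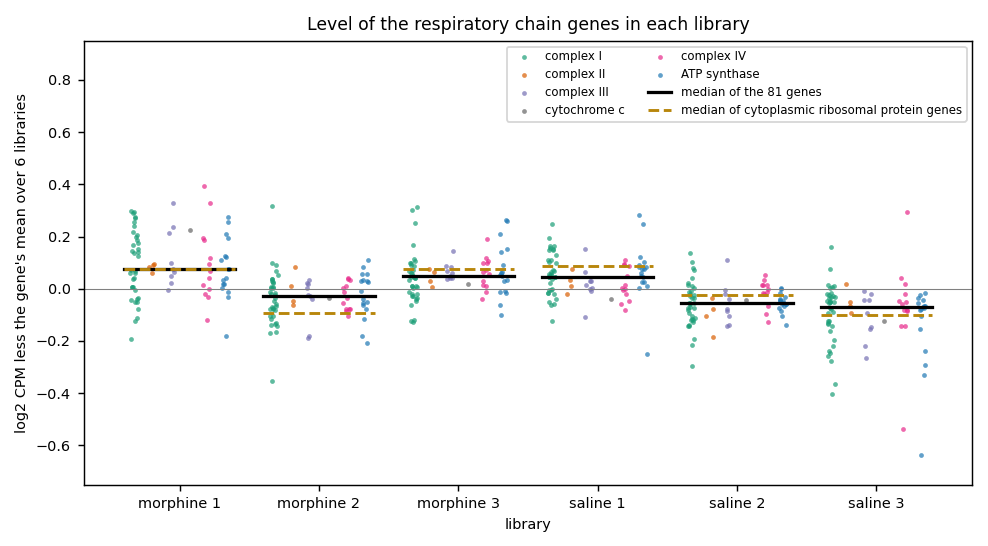
Log2 CPM of each of the 81 tested genes less its mean over the 6 libraries, by library, coloured by complex, with the median of the 81 genes (black line) and of 86 cytoplasmic ribosomal protein genes (dashed line). Morphine 1, morphine 3 and saline 1 lie above 0 in both medians, and the other 3 libraries below.

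The counts depended on single libraries. Without saline sample 1, the library with raised olfactory bulb markers, 14 genes were higher at an unadjusted p under 0.05 (4.14% of all genes were) and 0 passed adjustment, while edgeR called 186 genes in the whole table. The median log2 fold change was then 0.11 against 0.0049 for all genes, and 31 of 81 genes did not overlap between 3 morphine and 2 saline samples (38.3%, against 12.7% of all genes). The 14 genes were 7 of complex I, 2 of complex II, 2 of complex III and 3 of ATP synthase, with Ndufs5 (adjusted p = 0.0736), Uqcrq (adjusted p = 0.106) and Ndufs6 (adjusted p = 0.147) lowest in edgeR. Without morphine sample 2, 7 genes were higher at this p (3.95% of all genes were). The count was 1 without saline sample 3 (2.68% of all genes) or morphine sample 1 (1.33%), and 2 without saline sample 2 (3.48%) or morphine sample 3 (1.64%). In all 6 of these fits the median stayed above 0, between 0.0322 and 0.11.

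Complex I takes electrons from NADH, and its 7 nuclear core subunits between them hold the flavin and the iron-sulfur clusters. Of these, 4 lay above 0 (median 0.0488), against 21 of the other 30 subunits (median 0.0348). Ndufs1, the large iron-sulfur subunit, had 121, 126 and 127 CPM in morphine samples and 131, 123 and 126 CPM in saline samples. Ndufv1, which holds the NADH site and the flavin, had 90.8, 87.4 and 87.9 CPM against 91.7, 81.03 and 84.4 CPM. Both overlapped between the groups, with log2 fold changes of -0.02 ± 0.05 and 0.05 ± 0.06 (SE). The core subunit Ndufs8 had the largest value of the 7, with 24.2, 19.9 and 23.6 CPM against 20.4, 19.3 and 19.1 CPM (log2 fold change 0.20). Saline sample 1 lay above morphine sample 2 for this gene.

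Ndufs6, a zinc-binding accessory subunit of the NADH-oxidising arm (chr13:73319838-73328542, minus strand), had 10.6, 12.6 and 10.9 CPM in morphine samples and 10.1, 8.20 and 8.79 CPM in saline samples. The lowest morphine sample lay above the highest saline sample, by a narrow margin over saline sample 1. Its log2 fold change was 0.33 ± 0.12 (SE), with an adjusted p of 0.616 in edgeR. Ndufs5, an accessory subunit on the intermembrane-space side (chr4:123712710-123718202, minus strand), had 22.2, 17.4 and 22.7 CPM against 19.0, 16.7 and 13.9 CPM. Morphine sample 2 fell below saline sample 1, so the groups overlapped. Its log2 fold change was 0.33 ± 0.14 (SE), with an adjusted p of 0.619 in edgeR. Of the 100-base stretches of Ndufs5 transcripts, 12.7% also occur in BC002163, while none of Ndufs6 or Uqcrq do in another gene. The calls at this p were not stable: Ndufs6 no longer passed an unadjusted p of 0.05 without saline sample 2 (log2 fold change 0.26), saline sample 3 (0.31) or morphine sample 2 (0.25). Ndufs5 no longer did without saline sample 2 (0.34), saline sample 3 (0.23), morphine sample 1 (0.28) or morphine sample 3 (0.26).

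The promoter windows of these 2 genes are shown because they are the complex I genes of lowest p and both hold an NRF1 match, in capitals in each sequence. The match begins 16 bases before the start in Ndufs6 (chr13:73328433-73328732, minus strand) and 98 bases before it in Ndufs5 (chr4:123718137-123718436, minus strand). In Ndufs6 the second run of capitals, 33 bases after the start, is a YY1 match.
Ndufs6: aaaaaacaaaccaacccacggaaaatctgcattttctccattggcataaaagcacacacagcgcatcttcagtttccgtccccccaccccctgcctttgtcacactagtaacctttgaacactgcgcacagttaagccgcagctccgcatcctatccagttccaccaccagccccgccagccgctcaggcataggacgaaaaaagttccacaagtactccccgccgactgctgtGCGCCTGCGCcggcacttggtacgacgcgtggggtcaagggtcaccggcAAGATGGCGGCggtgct
Ndufs5: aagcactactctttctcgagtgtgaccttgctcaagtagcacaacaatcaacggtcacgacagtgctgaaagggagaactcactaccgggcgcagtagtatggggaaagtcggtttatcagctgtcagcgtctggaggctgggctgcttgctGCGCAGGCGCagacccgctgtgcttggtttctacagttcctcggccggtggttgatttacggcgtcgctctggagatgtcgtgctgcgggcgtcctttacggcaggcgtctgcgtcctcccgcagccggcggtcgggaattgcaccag
The Ndufs6 start lies 29 bases from that of Mrpl36, a mitochondrial ribosomal protein gene on the other strand, and 3.34% of the exonic bases of Ndufs6 overlap it. Mrpl36 averaged 8.10 CPM in morphine samples and 7.10 CPM in saline samples (log2 fold change 0.19 ± 0.13, SE). The libraries were directional, but the setting for strand in the counting is not given. Whether reads of overlapping genes on opposite strands were counted apart is thus not known.

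The lowest log2 fold change of all 81 genes was that of Ndufb2, a small membrane-arm subunit, with 11.1, 12.6 and 12.6 CPM in morphine samples and 15.1, 11.9 and 13.4 CPM in saline samples. The groups overlapped, and the log2 fold change was -0.16 ± 0.12 (SE, adjusted p = 0.728 in edgeR). Ndufa4 had 46.8, 40.4 and 41.6 CPM against 47.3, 41.5 and 38.6 CPM, and its groups overlapped too. The remaining complex I genes had log2 fold changes between -0.05 (Ndufb11) and 0.28 (Ndufa2), each with a p over 0.05.

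Complex II oxidises succinate, and is the only complex of the chain with no mitochondrially encoded subunit. All 4 of its genes lay above 0, although Sdhc turned to just below 0 without saline sample 3 or morphine sample 1. Sdhd, a membrane anchor that helps hold the heme (chr9:50596357-50603812, minus strand), had 38.6, 38.2 and 37.7 CPM in morphine samples and 36.4, 31.7 and 34.5 CPM in saline samples. The 3 morphine samples were nearly equal and all lay above the saline samples. Its log2 fold change was 0.16 ± 0.07 (SE), an unadjusted p just over 0.05 and an adjusted p of 0.638 in edgeR. Sdha had 268, 244 and 266 CPM against 258, 235 and 243 CPM (log2 fold change 0.08), the iron-sulfur subunit Sdhb 68.3, 66.0 and 65.7 CPM against 64.6, 61.9 and 66.2 CPM (0.05), and the other anchor Sdhc 38.4, 34.6 and 36.9 CPM against 38.2, 35.4 and 33.9 CPM (0.03). For these 3 genes the groups overlapped.

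The window of Sdhd (chr9:50603800-50604099, minus strand) is shown as that of the complex II gene with separate groups. It holds an NRF1 match beginning 79 bases before the start and, further on, a GABPA/ETS match beginning 46 bases before it, both in capitals.
Sdhd: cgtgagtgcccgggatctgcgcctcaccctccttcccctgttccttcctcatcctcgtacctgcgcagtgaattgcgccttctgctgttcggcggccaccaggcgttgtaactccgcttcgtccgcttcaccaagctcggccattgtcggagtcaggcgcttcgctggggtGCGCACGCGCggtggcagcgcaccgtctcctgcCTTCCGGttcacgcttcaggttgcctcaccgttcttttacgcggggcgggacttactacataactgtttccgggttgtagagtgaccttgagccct
The Sdhd start lies 98 bases from that of Timm8b, a mitochondrial import chaperone, which averaged 12.6 CPM in morphine samples and 10.3 CPM in saline samples (log2 fold change 0.29 ± 0.17, SE).

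Complex III passes electrons from ubiquinol to cytochrome c. Uqcrq, a small subunit beside cytochrome b (chr11:53427922-53430831, minus strand), had the lowest p of the 81 genes. It had 38.9, 30.5 and 34.3 CPM in morphine samples and 28.8, 29.4 and 25.8 CPM in saline samples. Every morphine sample lay above every saline sample, with morphine sample 2 closest. The log2 fold change was 0.30 ± 0.10 (SE), a fold of 1.24 with a 95% interval of 1.06 to 1.44, with an adjusted p of 0.605 in edgeR. Without morphine sample 1, its highest library, the log2 fold change was 0.21 and no longer passed an unadjusted p of 0.05. Gdf9, whose start lies 192 bases away on the other strand, averaged only 0.424 CPM against 0.565 CPM.

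The catalytic subunits of complex III differed less. Uqcrfs1, the Rieske iron-sulfur protein, had 79.8, 76.6 and 77.5 CPM in morphine samples and 76.5, 68.7 and 75.2 CPM in saline samples. Cyc1, cytochrome c1, had 58.2, 54.1 and 57.3 CPM against 58.1, 54.1 and 52.1 CPM. The groups were just separate for Uqcrfs1 (log2 fold change 0.09, adjusted p = 0.719 in edgeR) and overlapped for Cyc1 (0.05, adjusted p = 0.863). Of the core proteins, Uqcrc2 had 129, 129 and 132 CPM against 127, 120 and 125 CPM, and Uqcrc1 144, 139 and 146 CPM against 142, 129 and 135 CPM. Uqcr10, a small subunit, had 39.4, 37.7 and 38.0 CPM against 36.6, 36.4 and 33.3 CPM. Morphine samples lay above saline samples throughout for Uqcrc2 and Uqcr10, and saline sample 1 overlapped them for Uqcrc1. Uqcrh, the hinge protein that helps cytochrome c1 meet cytochrome c, was the only complex III gene below 0 with all 6 libraries, and just above 0 without morphine sample 2. It had 40.1, 35.4 and 42.9 CPM against 44.8, 40.2 and 39.1 CPM (log2 fold change -0.07).

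RefSeq gave no window for Uqcrq. The window of Uqcrc1 (chr9:108936398-108936697, plus strand) is shown instead for its cluster of NRF1 matches just after the start, at 5 and 30 bases, in capitals. The second reads as the motif on both strands.
Uqcrc1: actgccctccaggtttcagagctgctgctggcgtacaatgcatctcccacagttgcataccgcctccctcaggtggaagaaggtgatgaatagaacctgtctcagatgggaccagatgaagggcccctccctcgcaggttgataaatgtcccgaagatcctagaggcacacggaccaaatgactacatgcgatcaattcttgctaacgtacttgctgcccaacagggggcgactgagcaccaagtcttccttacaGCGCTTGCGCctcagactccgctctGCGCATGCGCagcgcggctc
Cytochrome c, the carrier between complexes III and IV, had 35.8, 29.9 and 31.0 CPM of Cycs in morphine samples and 29.8, 29.8 and 28.1 CPM in saline samples. Morphine sample 1 was high and the other 5 libraries lay close together, with no overlap of the groups (log2 fold change 0.14 ± 0.08, SE, adjusted p = 0.692 in edgeR). Of the 100-base stretches of Cycs transcripts, 22.6% also occur in pseudogenes of the Gm series, so its counts could be split with them.

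Complex IV reduces oxygen. Its highest log2 fold change was that of Cox6a2, with 1.11, 0.883 and 0.995 CPM in morphine samples and 0.863, 0.849 and 0.562 CPM in saline samples. The groups did not overlap, but these values rest on 11 to 23 counts, and the 95% interval of the log2 fold change of 0.38 ran from -0.30 to 1.06. Cox6c, a small subunit with no tissue form, had 76.3, 73.3 and 78.03 CPM against 68.8, 72.1 and 68.9 CPM. Its groups were separate, with a log2 fold change of 0.12 ± 0.05 (SE) and an adjusted p of 0.638 in edgeR. Cox4i1, the main form of the largest nuclear subunit, had 178, 164 and 186 CPM against 170, 177 and 163 CPM, and Cox8a 155, 145 and 166 CPM against 150, 160 and 152 CPM. Both overlapped, at log2 fold changes of 0.05 and 0.01. Cox7c had the lowest value of the complex, -0.05, with 64.2, 63.3 and 66.4 CPM against 70.9, 66.4 and 63.4 CPM.

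The window of Cox8a (chr19:7217567-7217866, minus strand) is shown as that of the gene of highest level. It has no NRF1 match and 2 GABPA/ETS matches on the other strand, in capitals, beginning 5 bases before and 32 bases after the start.
Cox8a: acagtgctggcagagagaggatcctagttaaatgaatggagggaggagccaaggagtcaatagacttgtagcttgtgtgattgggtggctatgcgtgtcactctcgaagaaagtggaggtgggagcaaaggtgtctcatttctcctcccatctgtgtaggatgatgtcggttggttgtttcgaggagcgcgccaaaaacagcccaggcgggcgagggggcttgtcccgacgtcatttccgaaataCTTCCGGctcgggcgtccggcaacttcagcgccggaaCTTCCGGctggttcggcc

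ATP synthase is built from F1 (a catalytic head and a central stalk), a rotating c ring and a peripheral stalk that holds the head still. The 5 genes of F1 lay in a narrow range above 0 (median 0.0469). Atp5a1 had 570, 522 and 560 CPM in morphine samples and 558, 524 and 516 CPM in saline samples, and Atp5b 631, 600 and 644 CPM against 653, 587 and 590 CPM. The groups overlapped in both genes. Saline sample 1 reached the morphine samples in both, and in Atp5a1 saline sample 2 also lay just above morphine sample 2. The 4 peripheral stalk genes had a median of 0.0838 and the 3 c ring genes of 0.0364. Atp5o, the subunit that ties the peripheral stalk to the head, had 7.13, 6.24 and 6.15 CPM against 4.92, 5.80 and 5.26 CPM. Its groups did not overlap (log2 fold change 0.29 ± 0.14, SE, adjusted p = 0.662 in edgeR). Atp5o is an uncertain gene in this table, since 35.6% of its exonic bases overlap D430001F17Rik or Gm15976 on the other strand and 27.9% of its 100-base stretches occur in other transcripts. Atp5mpl, a small proteolipid, had 21.7, 15.7 and 17.4 CPM against 19.8, 17.5 and 17.5 CPM, with overlap between the groups. Its log2 fold change was close to 0 and turned sign between alternatives.

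**Figure D5:**
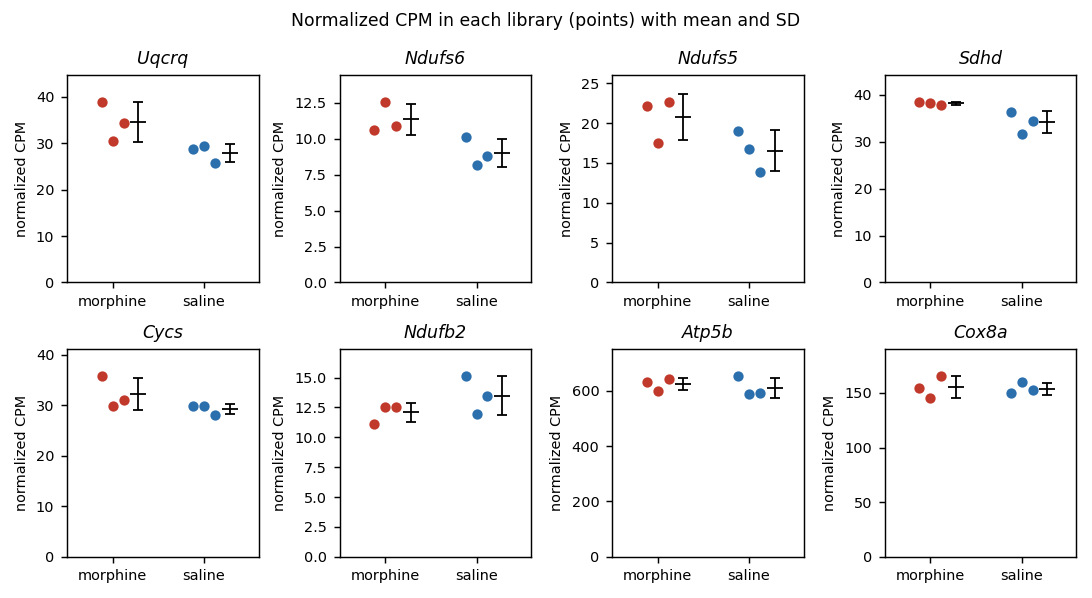
Normalized CPM of 8 genes in each library (points, libraries 1 to 3 from left to right) with the mean and SD of the group (n = 3), morphine left of saline, each axis starting at 0. Uqcrq, Ndufs6, Sdhd and Cycs show no overlap between the groups, and Ndufs5, Ndufb2, Atp5b and Cox8a do.

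Sequence and position features were set beside the differences after the values had been seen, as a description. The 17 genes with an NRF1 motif in a window had a median log2 fold change of 0.13 with 16 above 0, and the 49 tested genes whose windows lack it had a median of 0.0368 with 35 above 0. Genes with the GABPA/ETS motif had a median of 0.0451 (13 of 16 above 0), against 0.0571 without it (38 of 50). The 4 genes with the YY1 motif had 1 value above 0, against 50 of 62 without it. The 31 genes with a head-to-head neighbour had a median of 0.0565 (25 above 0), against 0.0555 (39 of 50) without one. The 18 genes with at least 10% of their sequence shared with or overlapping other genes had a median of 0.1102 (15 above 0). The 63 tested genes under 10% had a median of 0.0488 (49 above 0). Of 26 tested neighbours, 15 lay above 0, and 2 had an unadjusted p under 0.05 in edgeR: Kctd2, beside Atp5h, at 0.15 ± 0.06 (SE) and Phf14, beside Ndufa4, at -0.15 ± 0.05 (SE). Across the 81 genes, the log2 fold change ran against log2 exonic length (Pearson r = -0.31, Spearman rho = -0.21) and against log2 FPKM (r = -0.32, rho = -0.24), over genes that share their libraries.

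Other genes of the pathway were read in the same fit. Of the mRNAs encoded by mitochondrial DNA, 12 were in the table and 10 were tested, with 9 above 0 (median 0.12), and DESeq2 called 1 of them. An unadjusted p under 0.05 in edgeR was reached by 3, all higher, or 30% against 2.77% of all genes. mt-Nd5, a proton-pumping subunit of complex I, averaged 324 ± 12.2 CPM in morphine samples and 248 ± 15.2 CPM in saline samples (log2 fold change 0.39 ± 0.06, SE, adjusted p = 0.249 in edgeR). mt-Nd6, on the other strand of mitochondrial DNA, averaged 270 ± 2.99 against 247 ± 0.455 CPM (0.12 ± 0.04, SE, adjusted p = 0.616 in edgeR), and mt-Co3 14.1 ± 9.25 against 8.26 ± 0.285 CPM (0.79 ± 0.35, SE, adjusted p = 0.638). mt-Co3 varied widely among the morphine samples. Counted levels differed greatly within this list: mt-Co1 averaged 6163 CPM in morphine samples and 5694 CPM in saline samples. By contrast, mt-Co2 averaged 3.14 against 3.47 CPM and mt-Atp6 0.710 against 0.673 CPM. Mitochondrial mRNAs have nuclear copies, and the sources used here do not give how reads with several matches were counted.

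Of 51 assembly factors, 33 lay above 0 (median 0.031) and 2 were higher at an unadjusted p under 0.05 in edgeR, 3.92% against 2.77% of all genes. Lyrm7, a chaperone of the Rieske protein, averaged 11.01 ± 0.392 CPM in morphine samples and 8.86 ± 0.355 CPM in saline samples (log2 fold change 0.32 ± 0.11, SE, adjusted p = 0.615 in edgeR). Uqcc2, needed for making cytochrome b, averaged 26.6 ± 1.04 CPM against 22.6 ± 1.70 CPM (0.24 ± 0.08, SE, adjusted p = 0.616 in edgeR). Of 13 genes of the tricarboxylic acid cycle, 12 lay above 0 (median 0.0539) and 0 had a p under 0.05 in edgeR. Of 77 mitochondrial ribosomal protein genes, 44 lay above 0 (median 0.0155), also with 0 at that p.

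Of 15 regulators of mitochondrial genes, 5 lay above 0 (median -0.0425), and Gabpb2, a partner of GABPA, was lower at an unadjusted p under 0.05 (24.4 ± 3.57 CPM in morphine samples, 29.6 ± 3.59 CPM in saline samples, log2 fold change -0.28 ± 0.12, SE, adjusted p = 0.626 in edgeR). The factors whose motifs were searched each differed by less than the SE, with a p over 0.05 in edgeR. Nrf1 stood at -0.083 ± 0.099, Gabpa at -0.043 ± 0.090 and Yy1 at 0.031 ± 0.056 (SE).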

How the data were processed

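RNA was measured in rRNA-depleted directional libraries of mPFC from 3 morphine and 3 saline samples, grouped by their labels. The authors deposited 1 table of whole-number counts per gene, not normalized, and FPKM values, which over 13342 genes equal the deposited counts divided by gene length and a library factor (largest deviation 1.42e-14 on the log2 scale). Per the submitters' notes, the build was mm10 and the tools were HISAT2 2.1.0, cutadapt 1.9.3, StringTie 1.3.3, HTSeq 0.11.2, limma 3.40.6, DESeq 1.8.3 and DESeq2 1.26.0. The sources used here do not give the strand setting. The study's own test, DEGseq, was not used here.

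A gene was kept if 3 or more of 6 libraries reached 10 counts. After TMM scaling, edgeR 4.0.16 (R 4.3.3) gave quasi-likelihood F tests, with the group as the only term, two-sided, and Benjamini-Hochberg adjustment over all genes tested. CPM values use TMM library sizes. Alternatives were DESeq2 1.42.0, RLE factors, library totals, other count filters, limma 3.58.1 on log2(FPKM + 0.1) or log2(FPKM + 1) with an FPKM minimum of 0.1 or none, a replicate block and leaving out each library. The code was tested on simulated data. Gene positions come from GENCODE on GRCm38, the build of mm10, and shared sequence was counted in stretches of 100 bases.

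Genes named were those at an unadjusted p under 0.05, the highest and lowest log2 fold change and the highest FPKM in each complex, isoform pairs, c ring genes and the best known subunits, and in companion lists those at that p. Genes whose groups do not overlap, head-to-head neighbours, Ndufs8, Ndufa2, Ndufb8, Ndufb11, Uqcrc2, Cox6c and the factors of the searched motifs were named after their values had been seen. The members and lists were chosen with earlier results of these data known. Values of 1 gene are not reported here, although it stays in the counts and medians.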

Additional observations from a re-analysis of the deposited data

How the results depend on the processing

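No respiratory chain gene was called under any alternative run, and none was lower at an unadjusted p under 0.05 when a library was left out. The count higher at that p was 3 in edgeR, and moved to 5 with RLE size factors (3.24% of all genes were higher), 5 with limma on log2(FPKM + 0.1) with the filter (2.625% of all genes) or without it (2.29%), and 6 with limma on log2(FPKM + 1) (2.625%). It ran from 1 to 14 when libraries were left out in turn. Leave-one-out medians ran from 0.0189 to 0.0997 in complex I, 0.0368 to 0.1085 in complex IV and 0.0324 to 0.1198 in ATP synthase, highest without saline sample 1 except in complex IV, where the value without morphine sample 2 (0.1085) was close to that without saline sample 1 (0.108). Genes with every morphine sample above every saline sample numbered 10, and 31 without saline sample 1, an alternative chosen after seeing the data, in which fewer samples make separation easier. The causes of the other shifts were not tested.

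The labels do not give whether the same replicate number pairs 2 samples. Deviations of same-numbered samples correlated at 0.0153, 0.0013 and -0.0211, and those of differently numbered samples at -0.0348 to 0.0443. With 3 samples per group, these values do not settle it. With a replicate block, the median of the respiratory chain genes was 0.0562, 3 were higher at an unadjusted p under 0.05 and 0 were called. Of the named genes under all alternatives, 471 values kept their direction and side of that p, 9 passed it and 9 no longer did. The other 35 values, of 11 genes, turned sign, 0 of them at an unadjusted p under 0.05 and none with a size over 0.0949. With 3 samples per group, and standard errors near 0.08, differences of the median size seen here were not detectable gene by gene.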
